A study of Mus musculus with 7 samples.

Results

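The regions described here are stretches of chromatin that were open in both parts of the mouse stomach at embryonic day 16 (E16) and had no peak in the Sox2 knockout (KO) stomach of that age or in any other library. They were chosen by the peaks themselves: the peaks of all 7 lists on chromosomes 1 to 19 and X were merged where they shared at least 1 bp, and a region was kept when the E16 forestomach and the E16 hindstomach each had a peak in it and the other 5 lists had none. Of 326695 merged regions 6486 met this rule, 1.99% of all regions and 10.7% of the 60518 regions with a peak in both stomach parts. Presence and absence of peaks thus selected these regions and are given as a description, with no test.

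Each library stands for 1 group. The E16 libraries were stomach labelled Sox2 KO, forestomach, hindstomach, small intestine and colon, and the day 13 (E13) libraries were stomach and intestine. Per the labels' protocol, the other 6 libraries came from ShhCre;R26YFP/+ embryos, in which Cre from the Shh gene switches on a fluorescent reporter in gut epithelium. At E13 reporter-positive cells of several embryos were sorted after trypsin digestion of whole organs. At E16 the forestomach epithelium was loosened with dispase and peeled off, and the hindstomach, proximal small intestine and colon epithelium was shaken loose in EDTA. The KO allele, its Cre driver, the strain, the part of the stomach and the way its cells were isolated are not stated in the labels used here, so an effect of the knockout and one of isolation cannot be told apart. Without replicates no difference between groups was tested, and all intervals are 95% intervals that cover counting error only. The lists hold between 81179 peaks (E13 intestine) and 135743 (colon), with 107067 in KO, 87443 in forestomach and 113117 in hindstomach, and give no read depth or peak height.

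SOX2 is a transcription factor of the SOX family that binds DNA through an HMG box and is active in the early foregut and the stomach. The forestomach of the mouse becomes a squamous epithelium like that of the oesophagus, and the hindstomach becomes a glandular epithelium that secretes mucus, acid and pepsinogen. ATAC-seq marks open chromatin by the insertion of a transposase. Peaks at gene starts are mostly shared between tissues, whereas peaks far from them, many of them enhancers, differ between cell types. AP-1, a dimer of FOS and JUN family proteins, binds the letters TGANTCA and is often found at enhancers of epithelial cells.

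Since no genome sequence was used, letters could be read only where a region overlaps the RefSeq promoter table of GRCm38.p6, which holds 250 bases before to 50 bases after 32619 annotated starts. Of 6242 regions on the chromosomes it covers 65 (1.04%, 0.818 to 1.32) overlapped a promoter. The promoter bases inside 4 of these regions are printed 5′ to 3′ on the strand of the gene because they hold the AP-1 letters, which among the 16 motifs searched stood furthest above their share in all promoters. Capitals mark TGANTCA. Hal encodes histidine ammonia-lyase, the first enzyme of histidine breakdown (chr10:93488518-93488739, plus strand). Pla2g2e encodes a secreted phospholipase A2 (chr4:138877807-138877991, plus strand), Gstp2 a glutathione S-transferase (chr19:4042172-4042384, minus strand) and Slfn4 a Schlafen family protein (chr11:83175102-83175235, plus strand).
Hal: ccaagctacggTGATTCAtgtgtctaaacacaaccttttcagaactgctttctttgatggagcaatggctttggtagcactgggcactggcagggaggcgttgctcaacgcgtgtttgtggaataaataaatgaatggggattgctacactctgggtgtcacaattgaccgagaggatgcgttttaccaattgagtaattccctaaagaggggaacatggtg
Pla2g2e: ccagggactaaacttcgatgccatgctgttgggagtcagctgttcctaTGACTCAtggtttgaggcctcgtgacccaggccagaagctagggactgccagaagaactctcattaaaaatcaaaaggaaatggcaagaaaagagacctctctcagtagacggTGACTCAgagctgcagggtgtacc
Gstp2: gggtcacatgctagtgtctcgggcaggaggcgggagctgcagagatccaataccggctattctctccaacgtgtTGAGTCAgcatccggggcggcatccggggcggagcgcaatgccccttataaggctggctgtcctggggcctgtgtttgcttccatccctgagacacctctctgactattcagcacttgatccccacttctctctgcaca
Slfn4: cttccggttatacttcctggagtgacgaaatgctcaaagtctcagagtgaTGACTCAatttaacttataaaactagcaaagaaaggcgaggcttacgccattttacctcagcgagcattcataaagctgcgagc

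A second pair is shown because it holds the SOX core ACAATG, in capitals, and no AP-1 match in the bases printed. Cldn22 encodes a tight-junction claudin (chr8:47824352-47824531, plus strand), and Banf2 encodes a paralog of a chromatin-bridging protein (chr2:144032852-144033087, plus strand).
Cldn22: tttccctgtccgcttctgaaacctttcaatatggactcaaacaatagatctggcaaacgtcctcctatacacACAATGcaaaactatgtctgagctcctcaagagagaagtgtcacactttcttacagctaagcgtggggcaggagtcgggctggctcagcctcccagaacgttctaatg
Banf2: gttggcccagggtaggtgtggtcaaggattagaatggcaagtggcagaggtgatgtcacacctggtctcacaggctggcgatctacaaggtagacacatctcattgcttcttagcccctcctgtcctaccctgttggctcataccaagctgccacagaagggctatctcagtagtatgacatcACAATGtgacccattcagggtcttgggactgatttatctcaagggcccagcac

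The promoters printed were drawn from a set ranked by the width of the narrower stomach peak, so wide peaks among them follow from that choice. Of all forestomach and hindstomach peaks in the class, 90% were at or under 324.5 and 282 bp. The Hal region had a peak of 325 bp in forestomach and 493 bp in hindstomach, and a KO peak began 147 bp away. The Pla2g2e peaks were 203 and 285 bp wide in these lists, with the nearest KO peak at 4118 bp. The Slfn4 region, with peaks of 142 and 146 bp, stood far apart, with no KO peak within 57133 bp. The Cldn22 region lay 284 bp from a KO peak, and the Banf2 region 6829 bp.

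The AP-1 letters were common in the promoter bases that these regions cover. They occurred in 29 of 65 regions (44.6%, Wilson interval 33.2 to 56.7). Among regions of both stomach parts and KO only, they occurred in 25 of 87 (28.7%, 20.3 to 39), and among those of both stomach parts, E13 stomach and KO only, in 22 of 123 (17.9%, 12.1 to 25.6). The few regions of both stomach parts and E13 stomach only, which lack KO too, had them in 3 of 7 (42.9%, 15.8 to 75). Regions of all 4 wild-type E16 tissues and no KO or E13 peak had them in 2 of 27 (7.41%, 2.06 to 23.4). The interval of the late regions without KO overlapped those of the late regions with KO and of the 7 regions of E13 stomach without KO, and lay above those of the other classes. The classes with KO had lower shares but more bases searched, with medians of 175 bases per region, and 227 with E13 stomach and KO, against 144 for the 65 regions. The median was 142 with E13 stomach and no KO. The regions of the 4 tissues had both the fewest bases, with a median of 97, and the lowest share. Matches with C or G in the middle, the form bound by FOS and JUN dimers, stood in 24 of the 29. They stood in 20 of the 25 late regions with KO and in 20 of the 22 with E13 stomach and KO. In the small classes they stood in 1 of 3 with E13 stomach and no KO and in 1 of 2 of the 4 tissues.

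**Figure D1:**
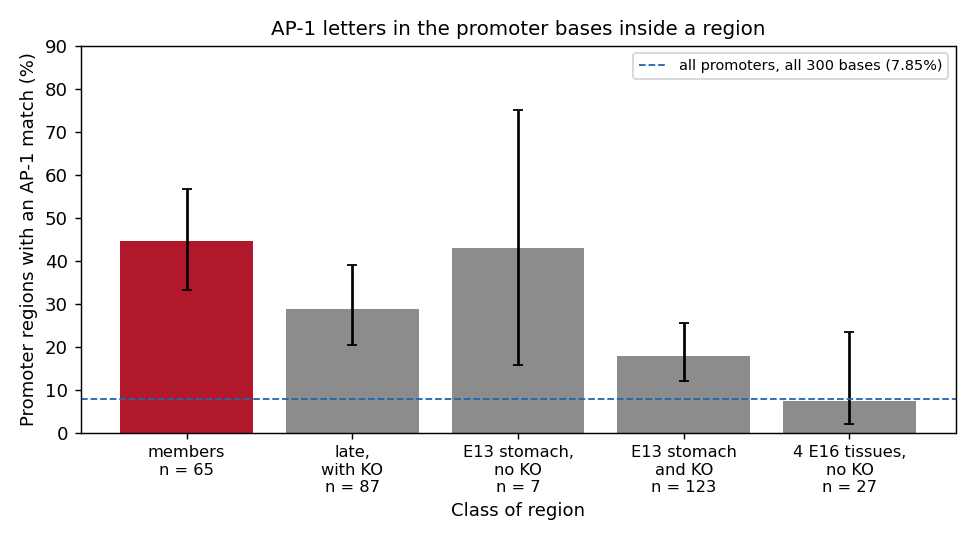
Share of regions (%, vertical axis) whose covered promoter bases hold TGANTCA, for the 5 classes of region on the horizontal axis; bars are shares, error bars 95% Wilson intervals for counting error, and the dashed line is the share of all RefSeq promoters over their 300 bases (7.85%). The bar of the late stomach regions without KO stands at 44.6% and that of the late regions with KO at 28.7%, with overlapping intervals; the 7 regions of E13 stomach without KO stand at 42.9%.

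Over whole promoters of 300 bases, both strands searched, AP-1 letters stood in 44.4% of the 72 promoters that the regions overlap (33.5 to 55.9), in 32.3% of 96 promoters with a late KO region and in 7.85% of all promoters. The SOX core ACAATG stood in 20.8% (13.1 to 31.6), 11.5% (6.52 to 19.4) and 12.2% of these promoters, and the second SOX form ACAAAG in 23.6%, 25% and 18.7%. The GATA letters AGATAA stood in 15.3%, 18.8% and 11.2%, and the TEAD letters GGAATG in 23.6%, 17.7% and 14.6%. The KLF letters GGGCGGG stood in 6.94% (3 to 15.2), 12.5% and 25.7%, and the second KLF form GGGTGGG in 11.1% (5.74 to 20.4), 25% (17.4 to 34.5) and 17.5%. The ETS letters CAGGAAG stood in 9.72% (4.79 to 18.7), 19.8% (13.1 to 28.9) and 13.4%. Between promoters without and with a late KO region, the shares of GGGTGGG lay further apart than those of AP-1, and for each of these letters the intervals of that pair overlapped. The median GC content of the promoters was 48.5%, 52.7% and 53% in the same order, and its part in these shares was not tested. Of the 65 genes with such a promoter 30 were protein-coding, against 41 of 88 for the late regions with KO and 17274 of 26794 for all promoters. Among the 30 were Il33, an epithelial cytokine, Pparg, a lipid-sensing nuclear receptor, Lhx6, a homeodomain factor, and Kcnn4, a potassium channel, all 4 chosen after the list was seen.

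The lack of a KO peak was not particular to stomach-only chromatin. Of the 10220 regions that both E16 stomach parts had and no other wild-type list had, 63.5% (62.5 to 64.4) had no KO peak, and these are the 6486 regions. Where E16 intestine also had a peak the share without KO was 56.3% (53.8 to 58.7), and where colon did it was 75% (73.3 to 76.7). Where both did and neither E13 list had a peak, it was 92.2% (91.7 to 92.7, 11048 of 11978). Where E13 stomach was the other wild-type list, the share was 15.3% (14.3 to 16.5), and with both E13 lists it was 3.12% (2.57 to 3.78). Taken over all regions of both stomach parts, KO lacked 77.2% of those in no E13 list and 13.1% of those in any E13 list. The presence of an E13 peak thus separated these shares more than the presence of an intestinal peak. The regions in no E13 list and in any E13 list also differed in other ways. Their narrower stomach peaks had medians of 139 and 215 bp, and 4.44% and 32.6% of them lay within 1 kb of a gene end. The part of width and position in these shares was not tested. The E16 stomach libraries are on both sides of all these counts.

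**Figure D2:**
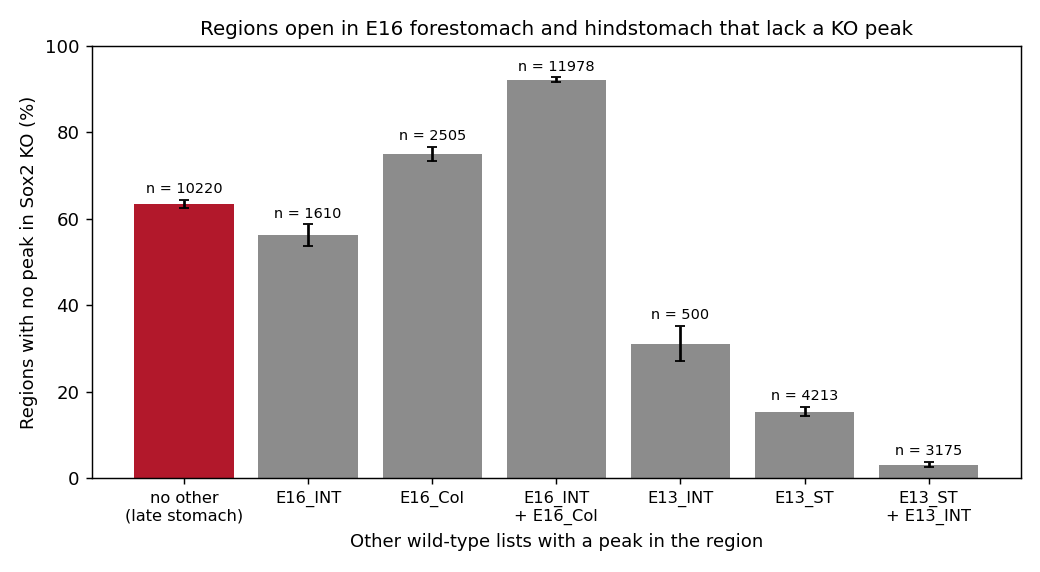
Share of regions open in E16 forestomach and hindstomach that have no KO peak (%, vertical axis), by the other wild-type lists with a peak in the region (horizontal axis); error bars are 95% Wilson intervals for counting error and n is the number of regions. The late stomach bar stands at 63.5%, below the 92.2% of regions that both intestinal E16 tissues share and above the 15.3% of regions that E13 stomach shares.

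Peaks at the gene ends of other cell types' markers differed between the libraries. Of 17 mesenchyme markers 14 had a peak at a gene end in KO, against 6 in forestomach, 9 in hindstomach and 10 in E13 stomach. Of 12 neural crest and neuron markers 11 had one in KO, against 7 in forestomach, 7 in hindstomach and 11 in E13 stomach, and of 14 blood and immune markers 8 did, against 5 in forestomach, 5 in hindstomach and 4 in E13 stomach. Endothelium markers had one at 5 of 11 genes in KO, against 6, 4 and 5 in these libraries. Over all protein-coding genes the shares were 68.8% in KO, 58.1% in forestomach, 62.6% in hindstomach and 65.6% in E13 stomach, and of 21 housekeeping genes 18, 20, 20 and 18 had one. All 22 pan-epithelial genes had a peak at a gene end in KO, forestomach and hindstomach. How far a mix of cells bears on the missing peaks was not tested, and with bulk libraries fewer cells of a type cannot be told apart from less open chromatin per cell.

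Peak width was not used by the rule. Within their own lists the peaks were of middle width, with median percentiles of 51.64 in forestomach and 53.45 in hindstomach, and they were narrower than those of the regions KO shares. In forestomach the median width was 182 bp (179 to 184), against 204 bp (200 to 208) for the 3734 regions of both stomach parts and KO only. In hindstomach the medians were 155 bp (153 to 157) and 192.5 bp (188 to 196). The 3567 regions that E13 stomach and KO share had 218 and 208 bp in these lists. The 646 regions of both stomach parts and E13 stomach only, which lack KO too, had 203 bp (192 to 215) and 160 bp (156 to 169). Their hindstomach median was thus close to the 155 bp. A peak of the smallest width that the list holds, 108 bp in forestomach and 89 bp in hindstomach, made up 10.5% of the forestomach peaks and 10% of the hindstomach peaks in these regions, against 7.45% and 4.39% in the late regions with KO, and 13.8% and 13.7% of all peaks in the lists. Among all 10220 late stomach regions, the share with no KO peak was 74.9% in the narrowest of 5 equal bins (median narrower peak 93 bp), then 68.8%, 64.7% and 59.6%, and 49.4% in the widest (271 bp). The same bins of regions shared with E13 stomach ran from 21.1% to 8.3%. The bins of each set were made from its own widths, and the late stomach share was the higher in all 5. A narrow peak has less room to overlap a peak of another list, and files without peak heights cannot show whether a weaker KO signal fell below the calling limit.

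**Figure D3:**
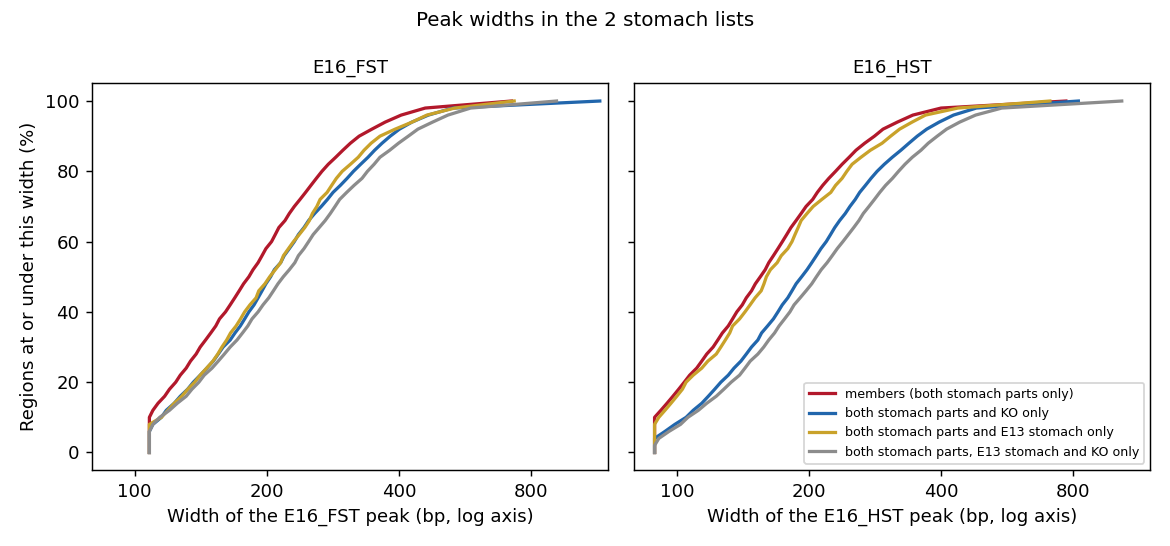
Cumulative share of regions (%, vertical axis) at or under a given peak width (bp, log axis) in forestomach (left) and hindstomach (right), for 4 classes of region shown as lines. The line of the regions without KO lies furthest left, with medians of 182 bp in forestomach and 155 bp in hindstomach, against 204 and 192.5 bp for late regions with KO.

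Within a region the peaks of the stomach parts lay on top of each other. In 6417 regions each list had 1 peak, and the median overlap was 98.3% of the shorter peak, with peak centres 28 bp apart. The forestomach peak was the wider in 4264 regions and the hindstomach peak in 2185. Ranked within their own lists, the forestomach peak stood higher in 3101 regions and the hindstomach peak in 3385, so neither part dominated on that scale. In 319 regions (4.97%) the peaks shared less than 50% of the shorter one. The widest region by its narrower peak lay 54146 bp from Neurod1, a neuroendocrine transcription factor gene, at chr2:79510782-79511560, with peaks of 652 bp in forestomach and 770 bp in hindstomach. The next was near Gadd45a, a stress-response gene, with 588 and 623 bp, and a region 11484 bp from Krt19, a keratin of simple epithelia, had 518 and 572 bp.

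KO peaks were often close by. The median distance to the nearest KO peak was 4620 bp (4405 to 4878), and 11.5% of the regions had one within 500 bp and 19.5% within 1 kb. The nearest E13 stomach peak lay at a median of 5950.5 bp, the E16 intestine peak at 6409.5 bp and the colon peak at 4899 bp, from lists of different lengths. KO peaks that lie in neither stomach part, a subset of all KO peaks, lay at a median of 11868 bp (11298 to 12447). From the late regions with KO they lay at 8836 bp (8264 to 9379). In all, 4333 regions (66.8%) had no peak of another list within 1 kb. At the border of the rule, a region at Daam1 touched a KO peak without sharing a base, with peaks of 295 and 319 bp, and one at Anks1 missed by 1 bp. Just outside it, a region near Emp2 shared 1 bp with a KO peak and one near Lgr4 3 bp. Such cases were few, with 36 regions within 50 bp of a KO peak and 42 late regions that share under 50 bp with one.

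Most regions lay away from gene ends, meaning more than 1 kb from either end of a protein-coding gene. At gene ends there were 358 (5.52%, 4.99 to 6.1), against 6.13% (5.41 to 6.95) of the late regions with KO, 7.43% of those with E13 stomach and KO and 20.3% of all regions of both stomach parts. Away from gene ends they formed 12.7% of the 48205 regions of both stomach parts. Inside gene bodies there were 52.8% (51.6 to 54), against 56.7% (55.1 to 58.3) of late regions with KO, and 11.2% had no gene within 100 kb. Of the late stomach regions at gene ends 61% (57 to 64.9) had no KO peak, against 63.6% (62.6 to 64.6) of those away from them. Of the 152 late stomach regions that overlap a promoter 42.8% (35.2 to 50.7) had none. Exons and introns could not be told apart with the annotation used here.

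The regions were spread over all chromosomes, from 9.48% of both-stomach regions on chromosomes 7 and X to 12.3% (11.3 to 13.3) on chromosome 1. Along the chromosomes 4985 of them (76.9%) stood alone, with another kind of both-stomach region on each side. The longest unbroken run held 6 and covered 167 kb at Ltbp1, which encodes a binding protein of latent TGF-β. Runs of 5 lay at Daam1, Arhgap26 and Ank2. The densest window of 100 kb held 7 of 16 both-stomach regions beside Sdc4, a cell-surface proteoglycan gene. The nearest other both-stomach region lacked a KO peak in 37.8% of cases (36.6 to 39), against 35.4% (33.8 to 36.9) next to late regions with KO. Next to regions of both stomach parts and E13 stomach only it was 47.6% (43.7 to 51.6), and 38.7% where KO shared those too. Over all regions of both stomach parts 41% had no KO peak, so neighbours of the class stood below that share.

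Each region went to the closest protein-coding gene no more than 100 kb away, which placed 5759 of them at 4077 genes. These are 18.8% of 21631 protein-coding genes and 24.9% of the 16381 genes with a both-stomach region. Of these genes 2960 had 1 region and 60 had 5 or more. The 25 genes with the most were long, at a median of 275 kb, while genes with a region had a median of 48.9 kb and all protein-coding genes one of 17.3 kb. Arhgap26 had 12 of 31 both-stomach regions in this class. Ltbp1 had 8 of 14, Ank2, an ankyrin gene, 8 of 21, Ppp3ca, the catalytic calcineurin subunit, 8 of 23, and Lpp, a focal adhesion gene, 8 of 37. Daam1, a formin that builds actin filaments, had 7 of 10, and Nck2, an adaptor of receptor tyrosine kinases, 7 of 14. Among shorter genes Sdc4 had 5 of 7 and Kcnj15, a potassium channel gene of acid-secreting cells, 5 of 7. The gene ends themselves mostly had a KO peak. Of the 2599 genes that have a region here and a both-stomach region at a gene end, 93.2% (92.2 to 94.1) had a KO peak at one, against 97.2% (96.8 to 97.6) of genes with no region here. The 358 regions of the class at gene ends lack a KO peak by the rule, so part of this gap can follow from the selection.

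At the stomach transcription factors, 8 of 12 genes had a region, against 18.8% of all protein-coding genes, and these 12 genes had 82 both-stomach regions. Away from gene ends 13 of 68 both-stomach regions (19.1%, 11.5 to 30) belonged to the class, an interval that includes the 13.2% of all protein-coding genes. Gata4, a zinc-finger factor of the glandular stomach, had 5 of 15. The region at chr14:63217300-63217528 inside Gata4 had peaks of 147 bp in forestomach and 175 bp in hindstomach, 2191 bp from a KO peak, and the one at chr14:63287967-63288324 had 357 and 196 bp, 404 bp from one. Another 9 regions at Gata4 had a KO peak, among them 3 that E13 stomach shared and no intestinal list did. Pdx1, a factor of antrum and duodenum, had 2 of 5, Sox21, a SOX gene of the foregut, 2 of 6, and Klf5 2 of 10.

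At Sox2 itself 1 of 6 both-stomach regions belonged to the class. It lies inside the gene at chr3:34650802-34651107 and joined a forestomach peak of 219 bp to a hindstomach peak of 89 bp that share only 3 bp, so it is 2 neighbouring peaks rather than 1 shared one. The KO and E13 stomach lists had their nearest peaks 744 and 705 bp away. Because the KO allele is not stated, it is unknown whether the bases of this region are present in the KO genome. Of the other 5 regions at Sox2, 3 were shared with E16 intestine and colon and had no KO peak either. Trp63, which encodes the p63 factor of squamous basal cells, had 1 of 3, at chr16:25723143-25723434, with peaks of 262 bp in forestomach and 258 bp in hindstomach and no KO peak within 34778 bp. Cdx2, a regulator of intestinal identity, had none of 3, and all 3 had a KO peak.

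Genes of both stomach epithelia had shares above that of all genes, over few regions and with wide intervals. Among 20 glandular stomach genes 5 (25%) had a region, against 18.8% of all protein-coding genes, and 8 of 41 both-stomach regions away from gene ends (19.5%, 10.2 to 34) belonged to it. Anxa10, a gastric annexin, held 4 of these, with peaks of 152, 192, 471 and 198 bp in forestomach and of 384, 292, 279 and 278 bp in hindstomach. Among 27 squamous epithelium genes 7 (25.9%) had one, with 13 of 63 (20.6%, 12.5 to 32.2). Both intervals include the 13.2% of all genes. Counted with gene ends, the 51 both-stomach regions of the glandular genes held 8 of the class and 10 late regions with KO. The 79 of the squamous genes held 13 and 8, and the 53349 of all protein-coding genes 5759 and 3383. Pkp1, a desmosomal plaque protein gene, and Tfap2a, a factor of surface ectoderm, had 3 each, and the barrier regulators Grhl3 and Klf4 had 2 each. Pan-epithelial genes stood at 13.7% (8.36 to 21.7), close to the 13.2% of all genes, with 4 regions at Grhl2, a regulator of epithelial junctions, and 3 at Krt19.

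**Figure D4:**
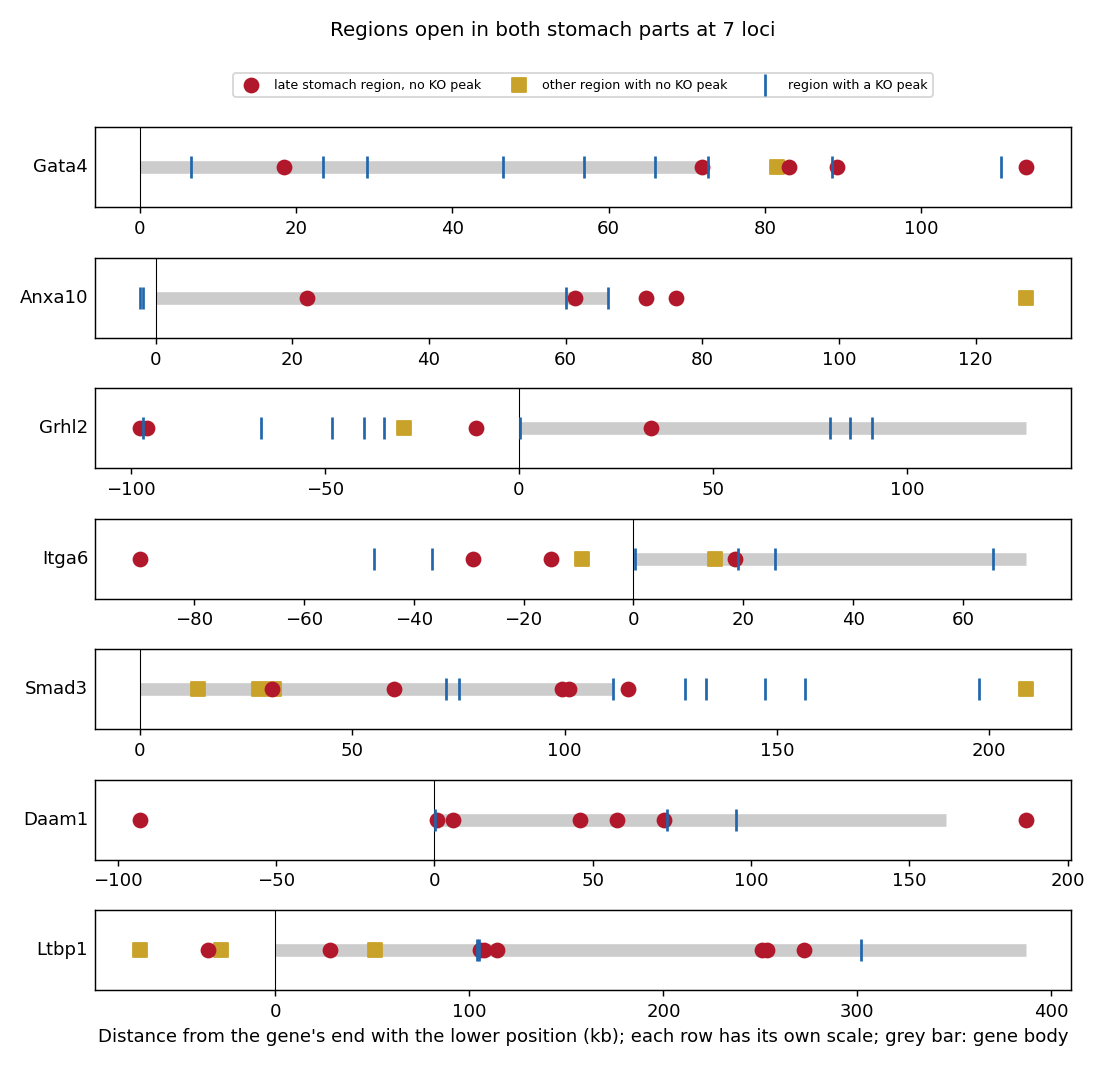
Regions open in both stomach parts at 7 loci, placed by their distance (kb, horizontal axis, own scale per row) from the gene's end with the lower position; the grey bar is the gene body, circles are late stomach regions without KO, squares other regions without KO and ticks regions with a KO peak. At Gata4, 5 circles lie among 9 ticks, and at Daam1, 7 circles lie beside 3 ticks.

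The adhesion, BMP and TGF-β and EGFR lists also had shares above that of all genes, although the interval of the EGFR list includes it. The adhesion and hemidesmosome genes, some of which tie basal cells to the basement membrane, had a region at 11 of 19 genes and 25 of 126 both-stomach regions away from gene ends (19.8%, 13.8 to 27.7). Itgb6 and the hemidesmosome linker gene Dst had 5 each and Itga6, an integrin of basal cells, 4. The BMP and TGF-β pathway had 14 of 21 genes and 28 of 134 regions (20.9%, 14.9 to 28.5), with 5 at the signal mediator gene Smad3, 4 each at the receptor genes Bmpr1b and Tgfbr3, and 3 of 5 at Bmpr2, a type II BMP receptor gene. The EGFR pathway had 10 of 18 genes and 16 of 94 regions (17%, 10.8 to 25.9), with 3 each at Areg and Btc and 2 at Hbegf, all ligand genes. The AP-1 and immediate early genes had 11 of 72 (15.3%, 8.75 to 25.3), 3 of them at Jun. Counted by gene, 18.8% of all protein-coding genes had a region. Both-stomach regions numbered 139 at the 19 adhesion genes, 153 at the 21 BMP and TGF-β genes and 112 at the 18 EGFR genes. All 21631 protein-coding genes had 53349. The part of this number per gene in the gene counts was not tested. Of these both-stomach regions 25, 28 and 16 at the adhesion, BMP and TGF-β and EGFR genes belonged to the class. In the same order 12, 13 and 4 were late regions with KO. Over all protein-coding genes 5759 belonged to the class and 3383 were late regions with KO.

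Other lists lay lower. The other SOX family genes had 5 of 91 (5.49%, 2.37 to 12.2), and Sox5 alone, a gene of 954 kb, held 3 of these 5 and 46 of these 91. The Wnt pathway had 10 of 116 (8.62%, 4.75 to 15.1), the Notch pathway 7 of 88 (7.95%, 3.91 to 15.5), retinoic acid genes 3 of 65 (4.62%, 1.58 to 12.7), the Hippo pathway 7 of 68 (10.3%) and the Hedgehog pathway 9 of 69 (13%). Intestinal transcription factors had 1 of 31 (3.23%), enterocyte genes 6 of 51 (11.8%), and colon and posterior Hox genes 0 of 15, whose interval reaches 20.4%. Housekeeping genes had 0 of 29, with an upper bound of 11.7%. Lists of cell types that the epithelium should lack did not all lie low: blood and immune markers had 7 of 31 (22.6%, 11.4 to 39.8), with 4 at Runx1 and 2 at Gata2, and endothelium markers 8 of 45 (17.8%, 9.29 to 31.3), with 5 at Flt1. Mesenchyme markers had 3 of 36 (8.33%) and neural markers 4 of 31 (12.9%). Of the 22 lists, the intervals of the adhesion and the BMP and TGF-β lists lay wholly above 13.2%, and those of the SOX family, retinoic acid and housekeeping lists wholly below it. Regions of 1 gene are not independent, so these intervals are too narrow.

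**Figure D5:**
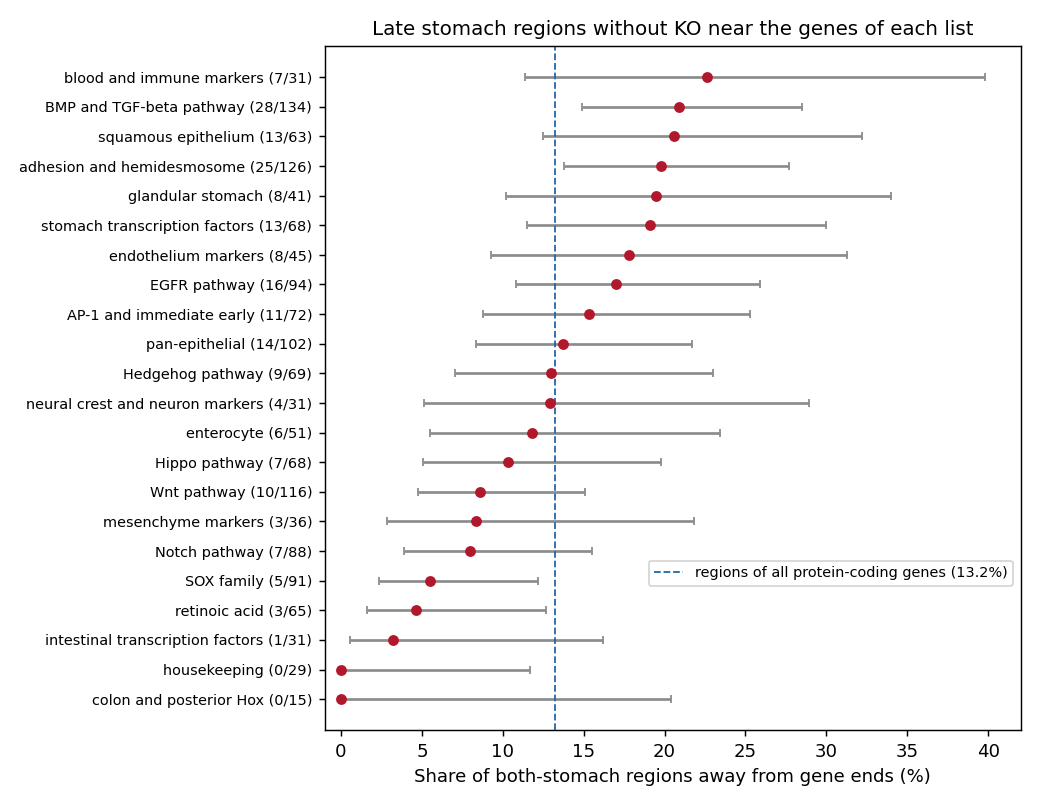
Share of both-stomach regions away from gene ends that have no peak in KO or any other list (%, horizontal axis), for the genes of each list (vertical axis, regions in brackets); points are shares, bars 95% Wilson intervals for counting error, and the dashed line is the 13.2% of all protein-coding genes. BMP and TGF-β pathway genes stand at 20.9% and SOX family genes at 5.49%, with 46 of the 91 SOX family regions at Sox5.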

How the data were processed

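ATAC-seq peak lists of 7 mouse libraries, 1 per group, were used. The lists as deposited give a chromosome, a start and an end in 3 columns. Their unit is thus other than a count or signal, without height, score, p-value or depth; per the submitters' processing notes the authors used cutadapt, Bowtie2, MACS2 and GRCm38 (mm10), with versions and thresholds not given in the sources used here. Positions are printed as deposited, and whether they count from 0 or 1 is not stated; sequence coordinates follow the RefSeq table.

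Peaks that share at least 1 bp were merged. Regions were given to the nearest of 21631 protein-coding genes of GRCm38.p6 within 100 kb, and a gene end reaches 1 kb to both sides of each end. The promoter table has no entry on chromosome 18. Shares have 95% Wilson intervals and medians order-statistic intervals. The 22 lists (383 entries, all found), the motifs and the regions themselves were chosen with earlier results of these data known. Named genes are the 25 with the most regions, up to 4 per list with at least 2, the 10 widest regions, and Sox2, Cdx2, Trp63 and Gata4. The first 15 at promoters, in order of the width of the narrower stomach peak, were named too. The text prints some of them. The comparison at promoters, the width bins and the shares away from gene ends were added after the data were seen. Merging and counting were tested on simulated data. Python 3.11.15 was used with numpy 2.4.6, pandas 2.3.3, scipy 1.17.1 and matplotlib 3.10.9.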

Additional observations from a re-analysis of the deposited data

How the results depend on the processing

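No paired analysis was possible because each group has 1 library, and for the same reason none could be left out within a group. Of 87 values under 16 alternatives, 52 stayed inside the interval of the reported value or within 1.5 times of it, and 35 moved. The cause was not tested. The 6486 regions became 2303 when both peaks had to be wider than the median of their list, and 10289 when KO was ignored. The share of late stomach regions without KO (63.5%) was 61% and 59.6% when no other peak might lie within 500 bp or 1 kb, 54.9% for wide peaks, 67.9% for the widest peaks at equal list length, and 49.5%, 62%, 62.5% and 65.8% with E13 stomach, E13 intestine, E16 intestine or colon ignored. The share at gene ends (5.52%) was 3.48% and 2.82% with no other peak within 500 bp or 1 kb, 4.86% for wide peaks, 4.97% without colon, and 2.62% and 10.2% with windows of 500 bp and 2 kb.

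Genes with a region (18.8%) were 18.2% with an overlap of at least 50%, 15.7% and 13.5% with no other peak within 500 bp or 1 kb, 8.18% for wide peaks, 18.3% at equal list length, 25.8%, 20.1%, 21% and 22.6% with KO, E13 stomach, E16 intestine or colon ignored, 17.9% within 50 kb and 18% with gene bodies extended by 10 kb. The median forestomach width (182 bp) was 258, 197, 190 and 172 bp for wide peaks, equal list length, KO ignored and colon ignored, and the hindstomach width (155 bp) 222, 177, 167 and 149 bp. AP-1 letters at promoters, recomputed after the data were seen, ran from 35.4% (KO ignored) to 56% (wide peaks). Of 308 counts of list genes 259 stayed within 1.5 times, with 4 to 10 genes for stomach transcription factors, 2 (no other peak within 500 bp or 1 kb) to 8 (KO ignored) for the glandular stomach's 5, 9 to 15 for BMP and TGF-β, 8 to 13 for adhesion, 5 to 10 for squamous epithelium and 1 to 4 for the SOX family. Depth is unknown, so an absent peak may be one not called.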
